A study of Mus musculus with 23 samples.

Results

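The 10 genes described here encode the transcription factor NRF2 (Nfe2l2) and enzymes and a transporter of antioxidant defence: Nqo1, Hmox1, Gclc, Gclm, Slc7a11, Txnrd1, Srxn1, Sod2 and Cat. Their rows were found by gene symbol, and all 10 have a row in each of the 2 tables of normalized counts, which hold 35455 and 35454 genes. NRF2 is held at a low level by KEAP1, which marks it for degradation. When oxidants or electrophiles modify KEAP1, NRF2 accumulates, enters the nucleus and switches on genes for glutathione synthesis, thioredoxin recycling and detoxification through antioxidant response elements. Control of NRF2 is thus largely on the protein, and the level of its mRNA need not follow its activity. Sod2 and Cat, which remove superoxide and hydrogen peroxide, are among the genes that the coactivator PGC1α is known to raise together with mitochondrial genes.

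All mice carried Braf CAT/+, in which Cre turns on BRAF V600E together with the red fluorescent protein tdTomato from the gene's own promoter, and tdTomato+ lung tumor cells were flow sorted for RNA sequencing. Cre came from an adenovirus with the Sftpc promoter, which limits it to cells that express surfactant protein C, mainly alveolar type 2 (AT2) cells. The first table holds 6 BRAF libraries (1, 3 and 2 at 2, 6 and 12 weeks p.i.) and 8 BRAF/PI3K libraries, which also carry Pik3ca HR/+ and so make PI3Kα H1047R (2, 4 and 2 at the same weeks). The second holds 5 BRAF/PGC1α Het libraries (Ppargc1a lox/+) and 4 BRAF/PGC1α Null libraries (Ppargc1a lox/lox), all at 12 weeks p.i.; both genotypes lose Ppargc1a from at least 1 allele, and neither is a wild-type control. By the labels 5 of the BRAF libraries are female and 1 male, and 3 of the BRAF/PI3K libraries are female and 5 male, while the Het libraries are 3 female and 2 male and the Null libraries 3 female and 1 male. Mice were of a mixed C57BL/6, 129 and FVB background. Those harvested at 12 weeks in the first table received less virus than those at 2 and 6 weeks, so week and titer cannot be told apart between 12 and 6 weeks. The labels give each library as a separate sample of its group without naming the animal, so p-values measure the spread between these samples.

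Values are counts normalized between the libraries of 1 table, and raw depth is unknown. They sum to between 16433820 and 20287296 per library in the first table and between 7115753 and 9159567 in the second, and levels are compared only within a table. Summed AT2 markers (10 genes, none at 0 in any library) lay between 456849 and 1248529 in 11 libraries of the first table and were lower in both BRAF/PI3K libraries at 2 weeks (114035 and 56181) and in BRAF/PI3K replicate 1 at 6 weeks (227190). The same 3 libraries had 55152, 56695 and 81050 normalized counts of 8 endothelial markers, against 6630 in the BRAF library at 2 weeks, 5420 to 41294 in the 5 later BRAF libraries and 12362 to 22832 in the other BRAF/PI3K libraries. They also held the 3 highest sums of AT1, fibroblast and ciliated cell markers (86750 to 110700 against at most 68190, 19849 to 30347 against at most 11294, and 1907 to 2282 against at most 1259), and the part of these cells in the results was not tested. At 12 weeks the BRAF/PI3K library labelled male had Y-linked Ddx3y at the level of females (55.4) and the one labelled female at that of males (1419.9). The targeted gene Ppargc1a, the gene of PGC1α, had 72.7, 38.0, 51.6 and 124 normalized counts in Null and 75.8, 170.2, 155, 199.5 and 561 in Het libraries (log2 fold change -1.51, 95% limits -2.60 to -0.42, limma adjusted p = 0.978). Most Het values lay above most Null values, but the groups overlapped, and the gene-level estimate does not measure the deleted part alone. In bulk samples, fewer cells of a type and less RNA per cell cannot be told apart.

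None of the 10 genes passed an adjusted p-value of 0.05 in any of the 8 comparisons made, in which limma called 0 to 7 genes. The share called of all genes tested was 0.0228% for BRAF/PI3K against BRAF cells with weeks pooled, 0.0171%, 0.0228% and 0.0114% at 2, 6 and 12 weeks, 0.0399% between 6 and 2 weeks, 0.0114% between 12 and 6 weeks, and 0.0% both for the difference between the 12- and 6-week genotype effects and for PGC1α Null against Het. The most abundant per kb of transcript was Nfe2l2 in every genotype, with means of 4452 (BRAF) and 4162 (BRAF/PI3K) normalized counts per kb, followed by Cat (3986 and 3040) and Gclc (2346 and 2082). Hmox1, Sod2, Txnrd1 and Gclm followed at means of 177 to 316 per kb, Srxn1 and Slc7a11 at 45.2 to 112, and Nqo1 was lowest at 5.5 and 15.3. The first 3 and the last place were the same in Het and Null libraries. In these tumor cells the transcripts for the glutathione-synthesizing subunit Gclc and for catalase were thus far more abundant than that of the textbook NRF2 target Nqo1.

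Nfe2l2 lies on the minus strand of chromosome 2, positions 75675513 to 75704641 of GRCm38. It had 9044 normalized counts in BRAF cells at 2 weeks, 13872, 9826 and 6523 at 6 weeks and 9127 and 17719 at 12 weeks. In BRAF/PI3K cells it had 6616 and 5247 at 2 weeks, 7930.0, 12519, 11096 and 13866 at 6 weeks and 12697 and 12437 at 12 weeks. Both BRAF/PI3K libraries at 2 weeks were among the lowest 3 of the 14, and at 6 and 12 weeks the range of one genotype lay inside that of the other. With weeks pooled, the difference between BRAF/PI3K and BRAF cells was near 0 (log2 fold change -0.10, 95% limits -0.65 to 0.46, limma adjusted p = 0.956). It turned to 0.37 with the AT2 marker sum as a covariate (95% limits 0.04 to 0.70, limma adjusted p = 0.760), where the unadjusted p was under 0.05. That sum itself went with genotype: with weeks pooled, 0 of 10 AT2 markers were higher in BRAF/PI3K cells (median log2 fold change -0.94). A covariate that may follow from genotype can take out part of its effect. Genotype differences fitted with it, here and below, are therefore not estimates of the genotype effect.

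Antioxidant response elements share the core TGACNNNGC, where N is any base. A search of both strands of the RefSeq promoter windows (GRCm38.p6, 250 bases before to 50 after each start) found it in 4 of the 8 genes with an entry, Nfe2l2, Gclm, Txnrd1 and Srxn1, against 3781 of all 27025 genes with a window. The match of Srxn1 lay after the start. Windows of Nqo1, Slc7a11, Sod2 and Cat and 2 of the 3 windows of Txnrd1 hold no match, and Hmox1 and Gclc are named only. The 3 matches before a start are shown because they lie at genes whose levels are followed below, with the core in capitals, 5′ to 3′ on the strand that reads TGACNNNGC, which is the minus strand of the chromosome in each.
Nfe2l2 (chr2:75704875-75704913, core base farthest from the start 240 bases before it): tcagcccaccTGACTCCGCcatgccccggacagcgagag
Gclm (chr3:122245403-122245451, core base farthest from the start 134 bases before it): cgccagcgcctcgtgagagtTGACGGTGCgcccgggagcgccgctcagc
Txnrd1 (chr10:82859094-82859142, core base farthest from the second of 3 starts 92 bases before it): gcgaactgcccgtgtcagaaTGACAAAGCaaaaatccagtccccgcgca
A match describes letters in a window and does not show that NRF2 binds there.

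Nqo1 encodes a quinone reductase and is widely used as a readout of NRF2 (chromosome 8, 107388225 to 107403206, minus strand). It was close to the floor of the data. BRAF libraries had 2.34 normalized counts at 2 weeks, 0, 9.58 and 11.6 at 6 weeks and 12.7 and 14.7 at 12 weeks, and BRAF/PI3K libraries had 1.01 and 13.5 at 2 weeks, 10.2, 10.5, 35.3 and 38.1 at 6 weeks and 64.5 and 16.5 at 12 weeks. No BRAF library exceeded 14.7, whereas 4 of 8 BRAF/PI3K libraries did. The pooled log2 fold change was 1.31 (95% limits -0.40 to 3.01, limma adjusted p = 0.756), and on this log2(value + 1) scale changes of such low values are understated. The highest Nqo1 library, BRAF/PI3K replicate 1 at 12 weeks, also had the highest sum of 11 macrophage markers, a sum without Chil3 and without Lyz2, which AT2 cells also express (8170, against 957 to 2546 in BRAF libraries). With all 13 markers the sum was 124841, below both BRAF libraries at 12 weeks (184830 and 228333), and the part of macrophages in the value was not tested.

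Hmox1 encodes heme oxygenase 1, which degrades heme and is under joint control of NRF2 and its competitor BACH1 (chromosome 8, 75093621 to 75100589, plus strand). At 2 weeks it had 466 normalized counts in the BRAF library and 192 and 125 in the BRAF/PI3K libraries. At 6 weeks it had 518, 379 and 313 in BRAF and 174, 504, 565 and 361 in BRAF/PI3K libraries, and at 12 weeks 563 and 732 in BRAF and 578 and 794 in BRAF/PI3K libraries. The lowest 3 of the 14 values thus came from the 3 libraries with the fewest AT2 marker counts, all of them BRAF/PI3K. At 2 weeks the difference was -1.58 on the log2 scale (95% limits -2.98 to -0.19). With 1 BRAF library at that week, these limits rest on the spread within the other groups. Hmox1 was the only one of the 10 with an unadjusted p under 0.05 there, as 13.5% of all 17558 genes had, and the comparison has 1 BRAF library, female, against 2 male BRAF/PI3K libraries. With the AT2 marker sum as a covariate the estimate turned to 0.83. With weeks pooled the difference was -0.47 (95% limits -1.31 to 0.37, limma adjusted p = 0.833), and it turned to 0.28 with that covariate.

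Gclc and Gclm encode the catalytic and the modifier subunit of glutamate-cysteine ligase, the first step of glutathione synthesis (Gclc on chromosome 9, 77754535 to 77794485, plus strand, and Gclm on chromosome 3, 122245557 to 122270732, plus strand). Gclc had the largest difference of the 10 between 6 and 2 weeks. It had 2759.6, 2741 and 1865 normalized counts in the 3 libraries at 2 weeks, the first of them BRAF. At 6 weeks it had 9134, 6813 and 4736 in BRAF and 3488, 8319, 8442 and 9803 in BRAF/PI3K libraries, and at 12 weeks 8729.7 and 16019 in BRAF and 15186 and 7172 in BRAF/PI3K libraries. All 2-week values were below all 6-week values, a separation that held, in either direction, for 3.09% of genes tested. The mean over genotypes was 2.73-fold higher at 6 than at 2 weeks (log2 fold change 1.45, 95% limits 0.62 to 2.28, exact permutation of weeks within genotype p = 0.0167, the smallest its 60 splits can give, limma adjusted p = 0.229). In that comparison 9 of 10 AT2 markers were also higher at 6 weeks with unadjusted p under 0.05, and with their sum as a covariate the Gclc difference was 0.45 (95% limits -0.40 to 1.30). Without BRAF/PI3K replicate 1 at 6 weeks it was 1.62, with a limma adjusted p of 0.0442, in a fit that called 106 of 17564 genes where the one with all libraries called 7 of 17558.

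Between genotypes Gclc did not differ beyond the spread (pooled log2 fold change -0.26, 95% limits -1.25 to 0.74). The value turned to 0.59 with the AT2 marker sum as a covariate (limma adjusted p = 0.838) and ran from -0.52 without BRAF replicate 1 at 2 weeks to -0.015 without BRAF replicate 2 at 12 weeks. Its partner Gclm did not share the course over weeks. Gclm had 827 normalized counts in BRAF cells at 2 weeks, 636, 1145 and 1130.4 at 6 weeks and 879.7 and 1302 at 12 weeks, and in BRAF/PI3K cells 1191 and 1804, then 1311, 931, 1010.4 and 1264, then 1569 and 1184. Its mean was 987 ± 247 in BRAF (SD, n = 6) and 1283 ± 286 in BRAF/PI3K libraries (SD, n = 8), and the ranges overlapped. The log2 fold change was 0.39 (95% limits -0.02 to 0.80, two-sided exact permutation p = 0.0556, limma adjusted p = 0.730). In this table Gclm was also the steadiest of the 10 genes, with an SD within genotype of 0.34 on the log2 scale where Gclc had 0.97 and the median gene 0.64. Among Het and Null libraries its SD was 0.61, above the 0.57 of the median gene.

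Slc7a11 encodes the light chain of the cystine importer that feeds glutathione synthesis (chromosome 3, 49892526 to 50443614, minus strand). Its BRAF values were 241 normalized counts at 2 weeks, 485, 243 and 910.2 at 6 weeks and 297 and 972 at 12 weeks. Its BRAF/PI3K values were 179 and 297, then 193, 256, 596 and 566, then 966 and 506. Both genotypes had low and high libraries at 6 weeks and the genotypes overlapped at each week with replicates in both (pooled log2 fold change -0.22, 95% limits -1.15 to 0.72). Over all alternatives of processing the pooled value ran from -0.97 to 0.20, the highest with the AT2 marker sum as a covariate.

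Txnrd1 encodes thioredoxin reductase 1, which keeps thioredoxin reduced (chromosome 10, 82833951 to 82897712, plus strand), and Srxn1 encodes sulfiredoxin, which restores overoxidized peroxiredoxins (chromosome 2, 152105516 to 152111376, plus strand). Txnrd1 had 1106 normalized counts in the BRAF library at 2 weeks, 834, 588 and 619 at 6 weeks and 739 and 1097 at 12 weeks, and in BRAF/PI3K libraries 585 and 633, then 302, 1053, 969.8 and 777, then 1057 and 1175. Its lowest library was the 6-week BRAF/PI3K replicate with few AT2 marker counts, and its pooled log2 fold change was -0.08 (95% limits -0.69 to 0.52). Srxn1 had 339 in the BRAF library at 2 weeks, 290.5, 213 and 337 at 6 weeks and 103 and 201 at 12 weeks, and in BRAF/PI3K libraries 344 and 168, then 188, 131, 413 and 389, then 518 and 359.8.

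At 12 weeks both BRAF/PI3K libraries were above both BRAF libraries for Srxn1, Sod2 and Nqo1. The genotypes did not overlap at that week, in either direction, for 29.2% of genes. Srxn1 was the member with the largest difference between genotypes at that week. The log2 fold change there was 1.58 (95% limits 0.27 to 2.89, limma adjusted p = 1.00), and its difference from the effect at 6 weeks was 1.71 (95% limits 0.06 to 3.36, limma adjusted p = 0.9999). It was the only one of the 10 with an unadjusted p under 0.05 at 12 weeks, against 3.76% of all genes, and for the difference of effects, against 2.87%, and at 6 weeks none was, against 4.24%. With weeks pooled it was 0.31 (95% limits -0.44 to 1.06) and turned to -0.02 with the labelled sex as a factor. The 12-week value rests on 2 libraries a genotype, among them the pair whose sex labels and Y-linked genes disagree, and left-out libraries moved it between 1.10 and 2.06. The highest Srxn1 value, 518 in BRAF/PI3K replicate 1, came from the library with the fewest club cell markers (1415). That library also had the highest sum of the 11 macrophage markers without Lyz2 and Chil3 (8170, against at most 3839 in the other 13 libraries). Over all 13 macrophage markers that library had 124841, below both BRAF libraries at 12 weeks (184830 and 228333). Without it the 12-week value was 1.32 (95% limits -0.36 to 2.99), and the part of those cells was not tested.

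Sod2 encodes the mitochondrial superoxide dismutase (chromosome 17, 13006846 to 13040063, plus strand). It had 1308 normalized counts in BRAF cells at 2 weeks, 1355, 1257 and 1413 at 6 weeks and 1080.4 and 1094 at 12 weeks. BRAF/PI3K cells had 2646 and 1826 at 2 weeks, 2224, 1229, 1341 and 893 at 6 weeks and 1232 and 1342 at 12 weeks. BRAF libraries therefore stayed within a narrow band, whereas the 3 libraries with few AT2 markers held the 3 highest values of the table. The means were 1251 ± 137 (SD, n = 6) and 1592 ± 590 (SD, n = 8), a log2 fold change of 0.27 (95% limits -0.19 to 0.74, two-sided exact permutation p = 0.242), which became -0.02 with the AT2 marker sum as a covariate.

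Cat encodes catalase, the peroxisomal enzyme that splits hydrogen peroxide (chromosome 2, 103453849 to 103485160, minus strand). BRAF libraries had 8966 normalized counts at 2 weeks, 11836, 12661 and 7229 at 6 weeks and 10533 and 11268 at 12 weeks. BRAF/PI3K libraries had 6787 and 4235 at 2 weeks, 6695, 9019, 8483 and 5797 at 6 weeks and 6795 and 15748 at 12 weeks. Apart from the 15748 of replicate 2 at 12 weeks, no BRAF/PI3K library exceeded 9019, while 4 of 6 BRAF libraries did. The means were 10415 ± 2003 (SD, n = 6) and 7945 ± 3483 (SD, n = 8), and the log2 fold change was -0.47 (95% limits -0.97 to 0.04, two-sided exact permutation p = 0.0876, limma adjusted p = 0.736). Without that replicate it was -0.62, with the labelled sex as a factor -0.17, and with the AT2 marker sum as a covariate -0.13.

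**Figure D1:**
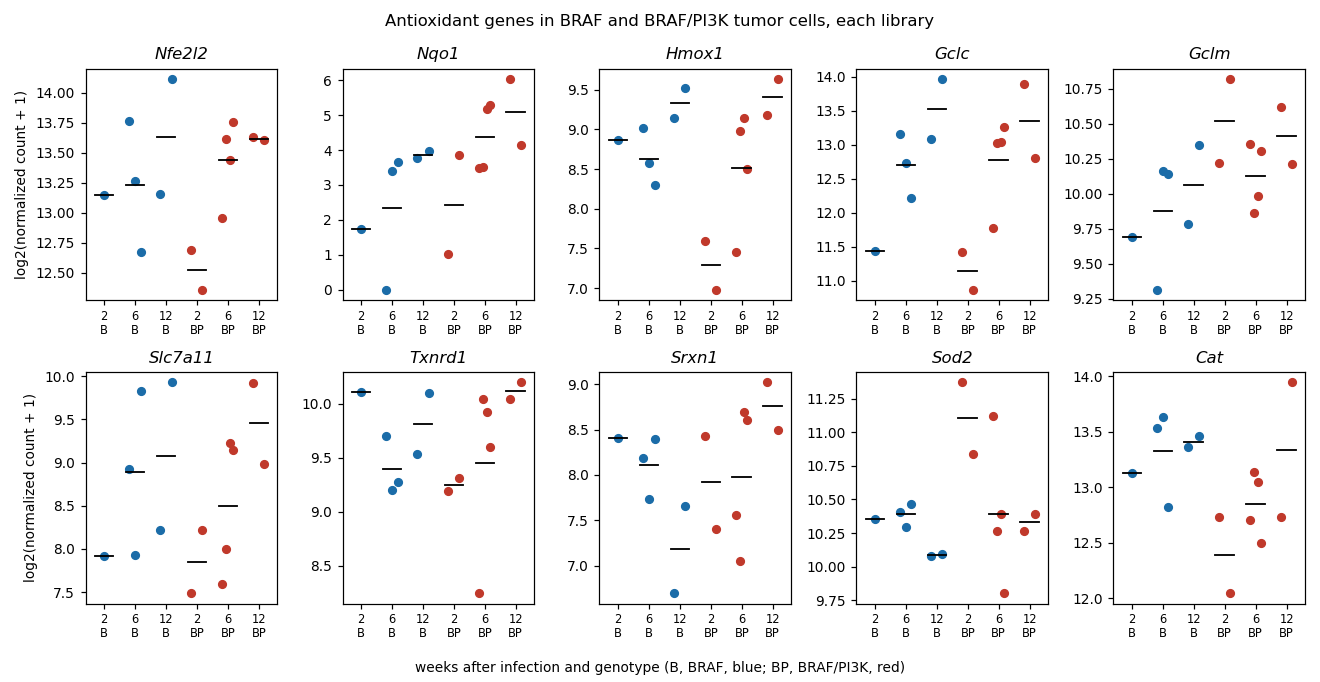
Each panel plots 1 gene as log2(normalized count + 1) against weeks after infection and genotype, with BRAF libraries (B) in blue, BRAF/PI3K libraries (BP) in red and group means as bars; the vertical axes differ in range. Gclc lay lowest at 2 weeks in both genotypes (1865 to 2759.6 normalized counts), and Sod2 was highest in both BRAF/PI3K libraries at 2 weeks and 1 at 6 weeks (1826 to 2646).

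Taking the 10 genes with weeks pooled, 0 passed the adjusted threshold, which 0.0228% of the 17558 genes did, and 0 had an unadjusted p under 0.05, as 6.83% of all genes had. Their median log2 fold change was -0.09 with 4 of 10 above 0, against a median of 0.02 over all genes. Between 12 and 6 weeks 8 of 10 were above 0 with a median of 0.42 against 0.00 for all genes, and 1 had an unadjusted p under 0.05, against 5.99% of all genes. That gene was Hmox1 (log2 fold change 0.79, 95% limits 0.08 to 1.51, exact permutation of weeks within genotype p = 0.0267, limma adjusted p = 0.830), in a comparison in which 8 of 13 macrophage markers were higher at 12 weeks with unadjusted p under 0.05. With the AT2 marker sum as a covariate its difference was 0.27 (95% limits -0.26 to 0.80). Between 6 and 2 weeks only Gclc had an unadjusted p under 0.05, against 10.4% of all genes.

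**Figure D2:**
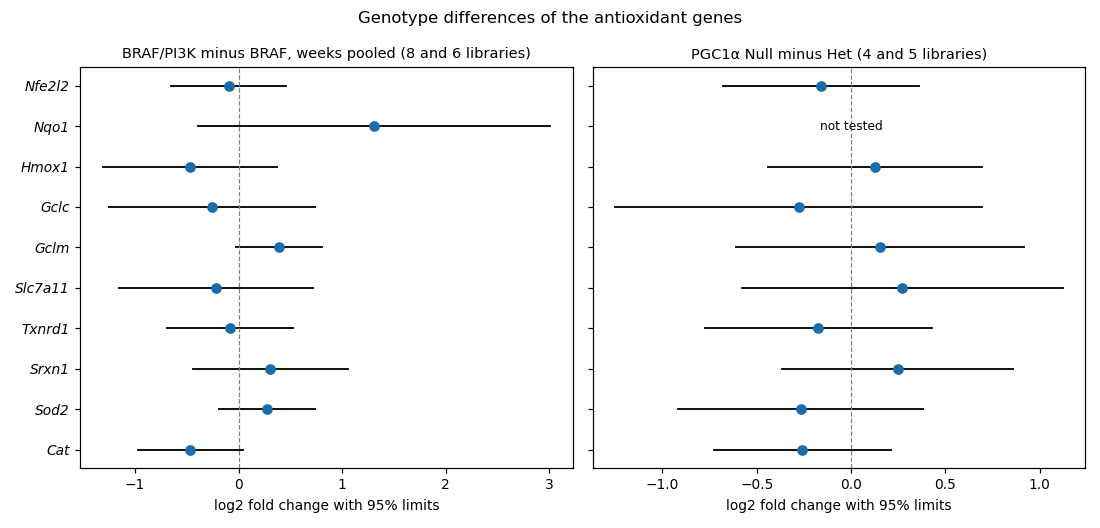
Points are log2 fold changes from limma and lines their 95% limits, for BRAF/PI3K minus BRAF with weeks pooled (left, 8 and 6 libraries) and PGC1α Null minus Het (right, 4 and 5 libraries); the horizontal axes differ. All lines cross 0; those of Gclm (-0.02 to 0.80) and Cat (-0.97 to 0.04) in the left panel only just do.

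Across the 14 libraries of the first table several of the genes moved with the AT2 markers. Relations were tested by permutation of libraries with Benjamini-Hochberg adjustment over 40 relations, those with the AT2 sum having been added after the data were seen. Hmox1 followed the log2 AT2 marker sum most closely (Pearson r = 0.93, Spearman rho = 0.86, adjusted permutation p = 0.0004) and kept an r of 0.89 without the 2 libraries farthest from the median sum. Nfe2l2 (r = 0.83, rho = 0.77, adjusted permutation p = 0.0020), Gclc (r = 0.81, rho = 0.73, adjusted permutation p = 0.0021) and Cat (r = 0.78, rho = 0.83, adjusted permutation p = 0.0021) also rose with it, and without the 2 farthest libraries their r were 0.68, 0.62 and 0.68. Sod2 ran the other way (r = -0.75, rho = -0.55, adjusted permutation p = 0.0228; -0.63 without the 2 farthest). The adjusted permutation p of rho was 0.0030 for Hmox1, 0.0155 for Nfe2l2, 0.0257 for Gclc, 0.0052 for Cat and 0.0924 for Sod2, so that of Sod2 did not pass. Within genotype and week, taken as deviations of the libraries from their group means, r was 0.93 for Hmox1, 0.85 for Nfe2l2, 0.76 for Gclc, 0.60 for Cat, -0.38 for Sod2, 0.80 for Txnrd1, -0.62 for Gclm and 0.08 for Slc7a11. BRAF/PI3K replicate 1 at 6 weeks had 227190 AT2 marker counts, against 538623 to 706240 in the rest of its group. It stayed in when the 2 farthest libraries were left out, and in these deviations. Whether the relations hold without all libraries of few AT2 markers was not tested. Srxn1 (0.08, and 0.24 within groups) and Nqo1 (0.10, and -0.44 within groups) had an r near 0 over all libraries, and those of Txnrd1 (0.58, and 0.76 without the 2 farthest), Slc7a11 (0.47) and Gclm (-0.54) missed the threshold over all libraries. Over the 9 Het and Null libraries no r with the AT2 sum passed, the largest being 0.78 for Sod2, of the opposite sign (adjusted exact permutation p = 0.0564). By rank Hmox1 passed there too (rho = 0.85, adjusted exact permutation p = 0.0277), with an r of 0.62.

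**Figure D3:**
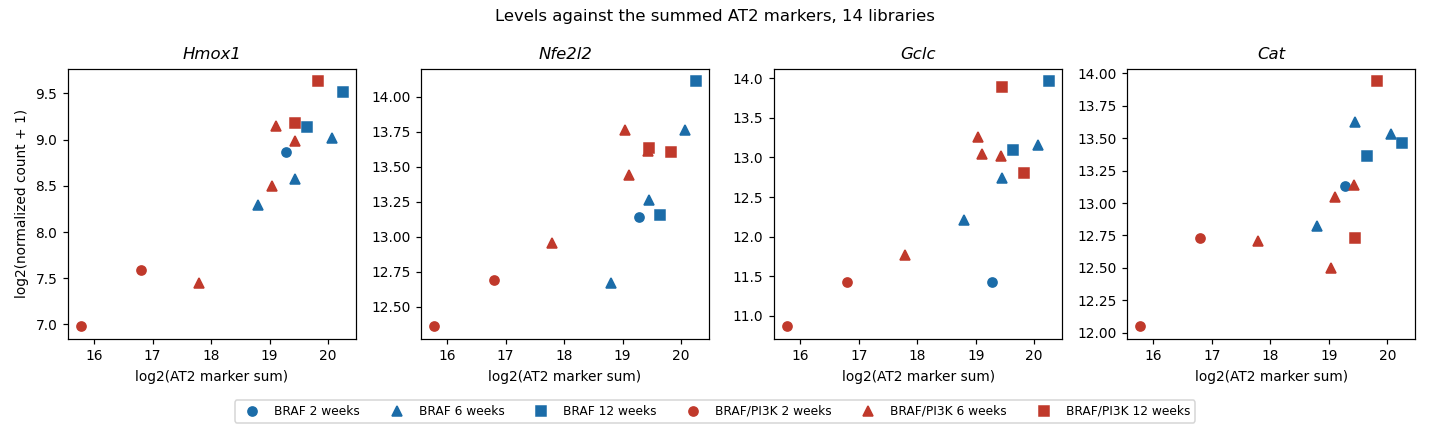
Each point is 1 of the 14 libraries, with the log2 sum of 10 AT2 markers on the horizontal axis and log2(normalized count + 1) of Hmox1, Nfe2l2, Gclc and Cat on the vertical axes; blue marks BRAF, red BRAF/PI3K, and the shape the week. The 3 leftmost points are both BRAF/PI3K libraries at 2 weeks and replicate 1 at 6 weeks.

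The targets were next set against Nfe2l2 itself in each table. Gclc followed Nfe2l2 in both, with r = 0.88 over the 14 libraries (rho = 0.89, adjusted permutation p = 0.0008; 0.78 without the 2 farthest) and r = 0.82 over the 9 Het and Null libraries (rho = 0.70, adjusted exact permutation p = 0.0288; 0.66 without the 2 farthest). By rank the second relation did not pass (adjusted exact permutation p of rho = 0.0911). As deviations from the group means the r were 0.83 and 0.81, and after the AT2 marker sum was regressed out of both genes 0.63 and 0.86. Txnrd1 followed it closely in the second table (r = 0.92, rho = 0.85, adjusted exact permutation p = 0.0023) and missed the threshold in the first (r = 0.61, adjusted permutation p = 0.0564). Slc7a11, in contrast, fell as Nfe2l2 rose in the second table (r = -0.96, rho = -0.93, adjusted exact permutation p = 0.0020; -0.90 without the 2 farthest, -0.96 as deviations from the group means, -0.95 with the AT2 sum regressed out), while in the first its r was 0.49 (adjusted permutation p = 0.135). The difference between the tables was not tested.

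**Figure D4:**
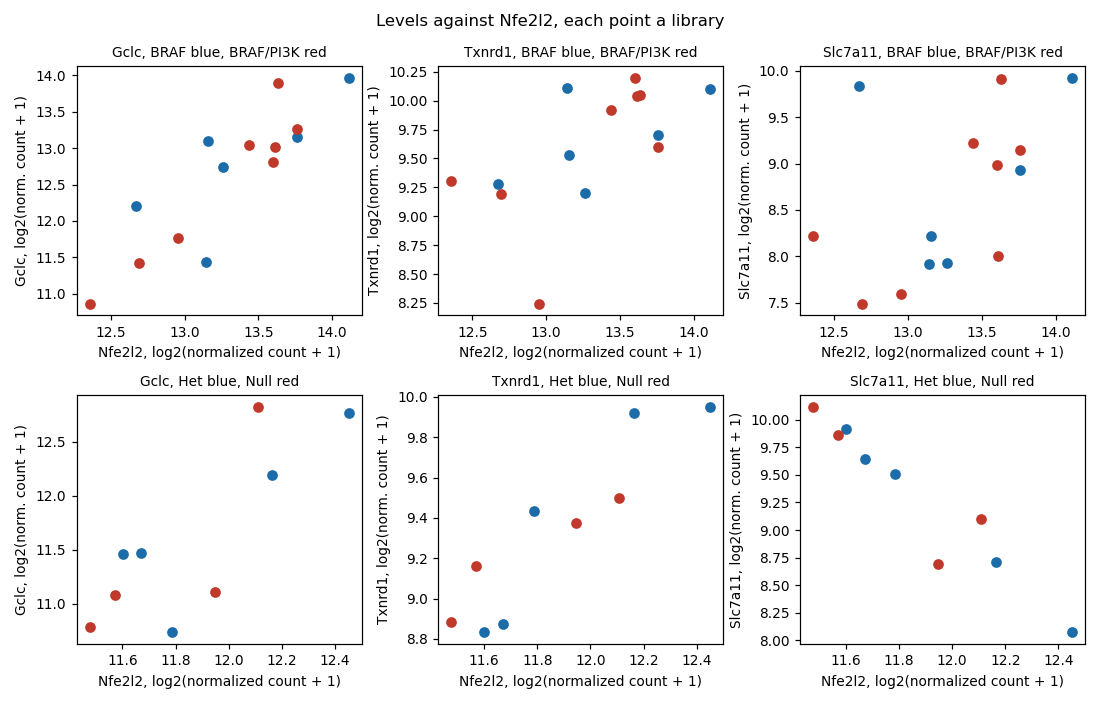
Each point is a library, with log2(normalized count + 1) of Nfe2l2 on the horizontal axis and of Gclc, Txnrd1 or Slc7a11 on the vertical axis, for BRAF (blue) and BRAF/PI3K (red) above and Het (blue) and Null (red) below. Gclc rises with Nfe2l2 in both rows (r = 0.88 and 0.82), and Slc7a11 falls with it in the lower row (r = -0.96).

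Other relations with Nfe2l2 were weaker or not shared. Hmox1 had r = 0.81 in the first table (rho = 0.71, adjusted permutation p = 0.0021), which was 0.21 once the AT2 marker sum was regressed out, and r = 0.46 in the second. Sod2 had r = -0.69 (adjusted permutation p = 0.0238, and 0.0555 by rank), which was -0.40 within groups and -0.17 once the AT2 marker sum was regressed out, and 0.62 in the second table (adjusted exact permutation p = 0.123). Gclm had r = -0.28 and 0.58, and Srxn1 0.16 and 0.60. Of the 36 pairs among the 9 genes measured above the minimum in both tables, 4 had an r above 0.5 in each table, as a description only. Ppargc1a and Cat had r = 0.66 over the 14 libraries (rho = 0.68, adjusted permutation p = 0.0340), which was 0.43 without the 2 farthest libraries, 0.64 within groups and 0.34 with the AT2 sum regressed out. Over the 9 libraries r was 0.45, which was 0.63 without the 2 farthest, 0.19 within groups and 0.63 with the AT2 sum regressed out. Ppargc1a and Sod2 had r = -0.40 and 0.13.

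The second table asks whether loss of the remaining Ppargc1a allele goes with a change of these genes, several of them known to respond to PGC1α. Of the 9 genes with a mean of at least 10 normalized counts, 0 passed an adjusted p of 0.05, which 0 of 17424 genes did, and 0 had an unadjusted p under 0.05, as 3.83% of all genes had. Their median log2 fold change was -0.16, against 0.01 over all genes, and the limma adjusted p was 0.998 for each. Cat had 3279, 3357, 3977, 5323 and 3804 normalized counts in Het and 4009, 3436, 2667 and 3038 in Null libraries. The lowest 2 were Null, but the highest Null library was above 4 of 5 Het libraries. The log2 fold change was -0.26 (95% limits -0.73 to 0.21, two-sided exact permutation p = 0.190), and -0.14 without Het replicate 4, the highest library.

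Sod2 had 247, 302, 361, 386 and 408 normalized counts in Het and 307, 396, 344 and 143 in Null libraries. Only the last Null library lay outside the Het range (log2 fold change -0.27, 95% limits -0.92 to 0.38, two-sided exact permutation p = 0.50). Nfe2l2 had 3105, 3530.2, 4588, 5600.4 and 3258 in Het and 3041, 3946, 4417 and 2849.7 in Null libraries (-0.16 on the log2 scale, 95% limits -0.68 to 0.36). For both genes the genotypes overlapped.

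The glutathione genes varied more within a genotype than between them. Gclc had 2816, 1705, 4681, 6969.9 and 2840.0 normalized counts in Het and 2161, 2204, 7247 and 1767 in Null libraries (log2 fold change -0.28, 95% limits -1.25 to 0.70). A single Null library, replicate 3, thus stood with the highest Het library while the other Null libraries lay near the lowest, and without it the log2 fold change was -0.73. Without Het replicate 4 it was -0.02. Gclm had 262, 302, 292, 471 and 128 in Het and 290.1, 484, 265 and 214 in Null libraries (0.15, limits -0.61 to 0.92). Slc7a11 had 962, 726, 419, 268 and 799.8 in Het and 929, 412, 546 and 1110.3 in Null libraries (0.27, limits -0.58 to 1.12).

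Hmox1 had 383, 411, 457, 419 and 224 normalized counts in Het and 421, 537, 386 and 298 in Null libraries (log2 fold change 0.13, 95% limits -0.44 to 0.69). Txnrd1 had 455, 691, 967, 989.8 and 469 in Het and 571, 663, 723 and 471 in Null libraries (-0.17, limits -0.77 to 0.43). Srxn1 had 86.8, 159, 199, 193 and 147 in Het and 184, 197, 195 and 146 in Null libraries (0.25, limits -0.36 to 0.86), and 0.05 on the log2 scale without the low Het replicate 1. In all 3 the Null values lay inside or close to the Het range. Nqo1 was at 0, 8.03, 1.86, 5.24 and 0 in Het and 1.14, 2.51, 0 and 1.34 in Null libraries, under the minimum for a test.

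**Figure D5:**
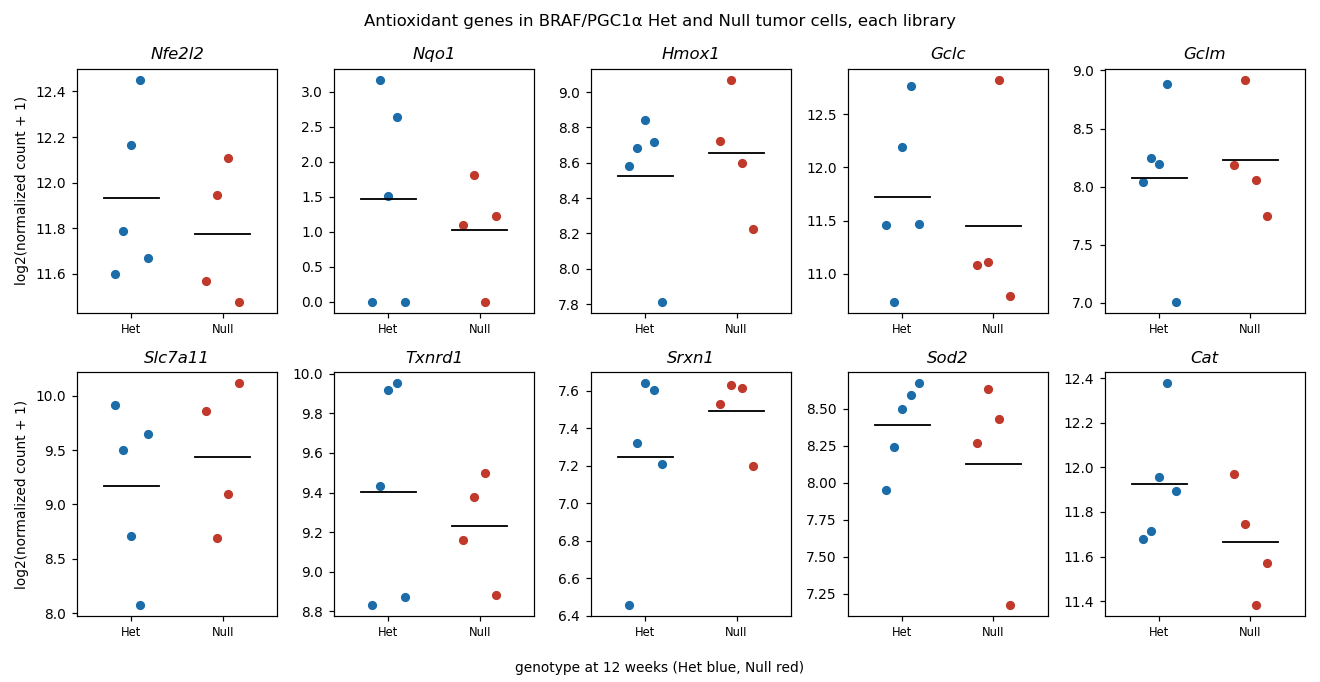
Each panel plots 1 gene as log2(normalized count + 1) in the 5 BRAF/PGC1α Het (blue) and 4 BRAF/PGC1α Null (red) libraries at 12 weeks, with group means as bars and vertical axes that differ in range. The genotypes overlap for every gene, and Cat has its 2 lowest libraries among the Null (2667 and 3038 normalized counts).

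The Null libraries held more of several other cell types' markers: all 8 endothelial markers were higher with unadjusted p under 0.05 (sums of 1348 to 2024 against 333 to 807 in Het), as were 4 of 5 club cell markers (4230 to 19378 against 1354 to 3072), 4 of 5 fibroblast markers tested (sums of 309.6 to 1341 against 87.9 to 333) and 4 of 13 macrophage markers, whereas summed AT2 markers overlapped (388997 to 627229 against 504708 to 637047). Their part in the results on the 9 genes was not tested.

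The wider pathway was read from lists of genes around the 10. Among 16 regulators of NRF2 (such as Bach1, a repressor of its target sites, and Gsk3b, a kinase that promotes NRF2 turnover), 0 had an unadjusted p under 0.05 in BRAF/PI3K against BRAF cells with weeks pooled, with a median log2 fold change of 0.08. Over all genes 6.83% had one. Gsk3b was at 0.36 (95% limits -0.03 to 0.74), Nfe2l3, a relative of Nfe2l2, at 0.56 (95% limits -0.10 to 1.22) and Bach1 at -0.38 (95% limits -0.94 to 0.18). Of 33 other NRF2 targets 1 had an unadjusted p under 0.05, Ftl1, the ferritin light chain, with 3170 ± 918 normalized counts in BRAF (SD, n = 6) and 1640 ± 1249 in BRAF/PI3K libraries (SD, n = 8), at -1.58 (95% limits -2.96 to -0.21, limma adjusted p = 0.677). Ftl1 has many near-identical copies in the genome, so its estimate is uncertain. The NADPH-producing enzymes Me1 (-0.84, 95% limits -1.75 to 0.06) and Tkt (-0.44, 95% limits -0.93 to 0.04), the second through the pentose phosphate pathway, came next, and the median of the targets was -0.14.

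Among 11 other glutathione genes tested, 1 was higher and 1 lower in BRAF/PI3K cells at an unadjusted p under 0.05. Slc3a2, the heavy chain that pairs with Slc7a11, had a mean of 1284 ± 351 normalized counts in BRAF (SD, n = 6) and 1767 ± 394 in BRAF/PI3K libraries (SD, n = 8), at 0.48 on the log2 scale (95% limits 0.04 to 0.91, limma adjusted p = 0.684). Ggt5, a gamma-glutamyltransferase, was at -1.29 (95% limits -2.30 to -0.28, limma adjusted p = 0.604). Of 27 other oxidant-removing enzymes 2 were lower at an unadjusted p under 0.05, a share near the 6.83% of all genes. Gpx8, a peroxidase of the endoplasmic reticulum, had 589 to 1177 normalized counts in BRAF (median 877) and 213 to 802 in BRAF/PI3K libraries (median 363), at -1.14 (95% limits -1.76 to -0.53, limma adjusted p = 0.286). Nnt, which makes mitochondrial NADPH for peroxide removal, had 1080.3 to 1343 in BRAF (median 1224) and 634 to 1099.6 in BRAF/PI3K libraries (median 832), at -0.54 (95% limits -0.88 to -0.20, limma adjusted p = 0.457). For both genes most BRAF/PI3K libraries lay under the lowest BRAF library, though neither passed the adjusted threshold. The mice were of a mixed strain background, and its part in the Nnt level was not tested. None of 9 oxidant-producing enzymes tested had an unadjusted p under 0.05 (median 0.19).

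Within single weeks 0 of the 16 regulators had an unadjusted p under 0.05 at 2 and at 6 weeks and 2 at 12 weeks, against 13.5%, 4.24% and 3.76% of all genes. Of the 33 other targets 1, 1 and 3 had one, of the 11 glutathione genes 3, 1 and 1, of the 27 oxidant-removing enzymes 2, 1 and 0 and of the 9 oxidant-producing enzymes 2, 0 and 1, and none passed the adjusted threshold. At 12 weeks Bach1 had 1282 and 1368 normalized counts in BRAF and 437 and 597 in BRAF/PI3K libraries, at -1.37 on the log2 scale (95% limits -2.28 to -0.47, limma adjusted p = 1.00). Nfe2l3 had 36.4 and 38.9 in BRAF and 66.6 and 132 in BRAF/PI3K libraries at that week, at 1.29 (95% limits 0.12 to 2.46). The 3 targets were the glutathione transferases Gsta1, Gsta2 and Gsta3, at 4.65 (95% limits 0.15 to 9.16), 5.87 (95% limits 1.99 to 9.74) and 1.14 (95% limits 0.01 to 2.27). Gsta2 had 0 and 4.90 normalized counts in the BRAF and 101 and 196 in the BRAF/PI3K libraries, so its fitted value rests on very low counts, as does that of Gsta1, which was at 0 in 1 of the BRAF libraries. Gsta1 and Gsta2 are closely related copies that can share reads, which makes both estimates uncertain. At 12 weeks the glutathione gene was Ggt1, at -5.11 (95% limits -8.44 to -1.78), and the oxidant-producing enzyme Ncf1, at 1.38 (95% limits 0.13 to 2.63). Ggt1 had means of 17.5 normalized counts in BRAF and 5.2 in BRAF/PI3K libraries over all weeks. At 6 weeks the genes were Tkt (-0.62), Ggct (1.48) and Gpx8 (-1.51). Those of 2 weeks are not named, as that week has 1 BRAF library. In Bach1, Nfe2l3 and the 3 Gsta genes the genotypes did not overlap at 12 weeks, with 2 libraries a genotype. These 5 genes were picked by their p at that week. Their separation is thus no separate result, and the 29.2% of all genes is no background for it.

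In Null against Het cells the same lists held few genes with an unadjusted p under 0.05: 0 of 16 regulators, 2 of 32 targets, 0 of 10 glutathione genes, 3 of 27 oxidant-removing and 1 of 9 oxidant-producing enzymes, against 3.83% of all genes, none past the adjusted threshold. Gstm2, a glutathione transferase, had 64.0 ± 19.1 normalized counts in Het (SD, n = 5) and 125 ± 34.2 in Null libraries (SD, n = 4), at 0.97 (95% limits 0.27 to 1.66, limma adjusted p = 0.964). Gpx3, the secreted glutathione peroxidase, was at 1.56 (95% limits 0.30 to 2.81) and Cybb, the catalytic subunit of the phagocyte NADPH oxidase, at 1.64 (95% limits 0.57 to 2.71, limma adjusted p = 0.800). Osgin1 (-0.67, 95% limits -1.32 to -0.03) and Msra, a methionine sulfoxide reductase (-0.87, 95% limits -1.69 to -0.06), were lower and Park7 (0.52, 95% limits 0.02 to 1.02) higher, each with a limma adjusted p of 0.998. Cybb is a macrophage gene by textbook knowledge, and macrophage markers summed to 1573 to 2859 in Null and 622 to 1929 in Het libraries (11 genes), whose part was not tested.

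The genes whose pattern over the 14 libraries was most like that of a member, among 12149 genes with a mean of at least 40 normalized counts in both tables, are given with r over 14 and then over 9 libraries, as a description. Nfe2l2 was most like Il10rb (0.95 and 0.64), Tfrc (0.94 and 0.38) and Actr3 (0.93 and 0.89), and Hmox1 most like Cpm (0.96 and 0.31), Zdhhc3 (0.96 and 0.50) and Tmem245 (0.96 and 0.23). Gclc was most like Adss (0.94 and 0.44), Klhdc8a (0.94 and 0.61) and Gsto1 (0.92 and 0.30), Cat most like Tmem56 (0.89 and 0.23), Paics (0.88 and 0.51) and Slco4c1 (0.88 and 0.66), and Sod2 most like Tmed8 (0.94 and 0.39), Ldlrad4 (0.92 and 0.26) and Slain2 (0.91 and 0.54). For Txnrd1 they were Luc7l2 (0.93 and 0.40), Ahnak2 (0.92 and 0.47) and Stxbp2 (0.90 and 0.40), and for Slc7a11 Lgals3 (0.86 and -0.69), Cd300a (0.86 and 0.88) and Fgr (0.86 and 0.05). Gclm was most like Irf8 (0.84 and -0.46), Tarbp2 (0.82 and 0.72) and Zcchc6 (0.82 and 0.56), and Srxn1 most like 2810039B14Rik (0.85 and -0.63), Vmn1r14 (0.84 and -0.57) and Ankzf1 (0.81 and 0.56). For Nqo1, which is under the minimum in the second table, the first 3 were Rgs1 (0.88), Arhgap45 (0.87) and Sh2d1b1 (0.86). Of these likenesses Actr3 to Nfe2l2 and Cd300a to Slc7a11 were over 0.8 in both tables, and no other listed gene was 0.8 or over in the second.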

How the data were processed

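Libraries were made from RNA of sorted tdTomato+ cells by an amplifying kit (Nugen Ovation Ultralow), quantified by the authors with Salmon and normalized with DESeq2 (no versions given, and the labels name build GRCm38). The deposited signal values are these normalized counts per gene. At most 12.1% of low values were whole multiples of a step, so read counts were not recovered, depth in reads is unknown, and precision comes from the spread between libraries. Samples were grouped by their labels. The 2 deposited tables of the authors' own comparisons hold fold changes and p-values and were not used.

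Of each table, the genes averaging 10 normalized counts or more (17558 and 17424) entered limma 3.58.1 in R 4.3.3 as log2(normalized count + 1), with a trended prior variance and two-sided tests, with Benjamini-Hochberg adjustment over all genes at 0.05. Fold changes are on that scale, which understates changes of low genes. Pooled and Null comparisons fit genotype alone. Weekly comparisons fit a mean for each genotype and week over all 14 libraries. The BRAF group at 2 weeks holds 1 library, so limits and p-values at that week rest on the spread within the other groups. Two-sided exact permutation tests used the mean log2 value, and correlations used 100000 permutations (14 libraries) or all of them (9 libraries). Scripts were tested on simulated data. Python 3.11.15 and scipy 1.17.1 were used.

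The members and lists were chosen with earlier results of these data known. Named genes are the 10 members, Ppargc1a, the 3 genes most correlated with each member, and genes of the lists. List genes were drawn from the 3 of each list with the lowest unadjusted p in the pooled and Null comparisons. Every list gene past unadjusted 0.05 in those comparisons is among these. Also named are list genes past unadjusted 0.05 within single weeks that have replicates in both genotypes. Alternatives were a pseudocount of 4, a mean of at least 40, no filter, quantile normalization, sex or week as a factor, a replicate block and leaving out libraries. The AT2 marker sum as a covariate and among the relations, permutation of weeks, and sex without both BRAF/PI3K libraries at 12 weeks were added after seeing the data. Promoter sequences are RefSeq's (8 of 10 members matched).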

Additional observations from a re-analysis of the deposited data

Results flagged for a closer look

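Of 33 pairs of a gene and a group (3 groups of 4 or 5 libraries), 4 held a library far from the others by Dixon's criterion at 95%, which chance gives in about 1 in 20, and 2 of the 4 came from the same library. At 6 weeks BRAF/PI3K replicate 1 had the lowest Gclc (3488 normalized counts, against 8319 to 9803 in the others) and the lowest Ppargc1a (117, against 268 to 301). This library also had the fewest AT2 marker counts of its week (227190). In BRAF/PGC1α Het cells replicate 5 had the lowest Hmox1 (224, against 383 to 457), and in BRAF/PGC1α Null cells replicate 3 had the highest Gclc (7247, against 1767 to 2204).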

How the results depend on the processing

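Leaving out 1 library called a member of the 10 genes once, Gclc between 6 and 2 weeks, and the other alternatives called none. Genes called of all genes moved more, and the cause was not tested. With a pseudocount of 4, limma called 7 genes (4 before) with weeks pooled, 0 (3 before) at 2 weeks, 7 (4 before) at 6 weeks, 4 (2 before) at 12 weeks, 2 (7 before) between 6 and 2 weeks and 0 (2 before) between 12 and 6 weeks. Without the filter these were 107 at 2, 1 at 6 and 16 at 12 weeks, 87 between 6 and 2, 7 between 12 and 6 weeks and 2 (0 before) for the difference between 12- and 6-week effects. With quantile normalization they were 0 at 2, 7 at 6 and 4 at 12 weeks, 2 between 6 and 2 weeks and 2 for the difference of effects, with a mean of at least 40 they were 3 between 6 and 2 weeks, and with sex as a factor 0 at 2 and 1 at 6 weeks, 2 between 6 and 2 and 1 between 12 and 6 weeks. With the AT2 marker sum as a covariate they were 0 at 2, 2 at 6 and 4 at 12 weeks, 0 between 6 and 2 and 1 between 12 and 6 weeks.

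Leaving out 1 library gave 3 to 9 genes pooled (9 without BRAF/PI3K replicate 1 at 12 weeks), 0 to 268 at 2 weeks, 1 to 12 at 6 weeks, 2 to 4 at 12 weeks, 0 to 106 between 6 and 2 weeks, 0 to 2 between 12 and 6 weeks and 0 to 1 for the difference of effects; the 268 and 106 were without BRAF/PI3K replicate 1 at 6 weeks. Members called ranged from 0 to 1 between 6 and 2 weeks. The Gclc adjusted p there ranged from 0.0442 to 0.715 over all alternatives.

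The pooled log2 fold change turned direction with the AT2 covariate for Nfe2l2 (0.37), Hmox1 (0.28), Gclc (0.59), Slc7a11 (0.20), Txnrd1 (0.26) and Sod2 (-0.0211), with sex as a factor for Nfe2l2 (0.0875) and Srxn1 (-0.0168), and with sex as a factor and without both BRAF/PI3K libraries at 12 weeks for Nfe2l2 (0.0091) and Srxn1 (-0.32). At 2 weeks Hmox1 turned to 0.83 with the AT2 covariate, and in Null against Het cells Slc7a11 to -0.0472 and Txnrd1 to 0.0087. With 1 library left out the pooled values ran from -0.23 to 0.0573 for Nfe2l2, -0.41 to 0.0086 for Slc7a11 and -0.18 to 0.10 for Txnrd1, and those of Null against Het from -0.0525 to 0.27 for Hmox1, -0.11 to 0.35 for Gclm, -0.0027 to 0.52 for Slc7a11 and -0.44 to 0.0499 for Sod2. The others kept their direction with 1 library left out: pooled from 0.75 to 1.74 for Nqo1, -0.64 to -0.26 for Hmox1, -0.52 to -0.015 for Gclc, 0.27 to 0.48 for Gclm, 0.078 to 0.47 for Srxn1, 0.16 to 0.38 for Sod2 and -0.62 to -0.35 for Cat, and in Null against Het from -0.27 to -0.029 for Nfe2l2, -0.73 to -0.016 for Gclc, -0.32 to -0.035 for Txnrd1, 0.050 to 0.35 for Srxn1 and -0.36 to -0.14 for Cat. None of these values passed the adjusted threshold. The values for BRAF/PI3K against BRAF cells with the AT2 covariate are not estimates of the genotype effect, as the AT2 markers themselves went with genotype.

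Replicate numbers did not pair the samples: deviations of libraries with the same number correlated at 0.21, -0.21, 0.14 and -0.47 between Het and Null and at -0.28, -0.03 and -0.01 at 6 weeks and at -0.15 at 12 weeks. With a replicate block limma called 6 genes pooled, 2 at 6 weeks and 0 in Null against Het, and the Null against Het value turned to -0.0525 for Hmox1 and -0.11 for Gclm.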
